A study of Mus musculus with 51 samples.

Results

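Hox genes encode the homeodomain transcription factors that give cells their position along the body axis, and in the mouse they stand in 4 clusters, HoxA to HoxD. All autosomal protein-coding genes of GENCODE M21 with a Hoxa, Hoxb, Hoxc or Hoxd symbol followed by a number were taken, which gave 39 of 20807 genes. There were 11 genes in HoxA, 10 in HoxB, 9 in HoxC and 9 in HoxD. A gene was called where a deposited peak overlapped by at least 1 bp a window reaching 500 bp up- and downstream of the 5′ end (TSS) of any of its transcripts.

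The peaks were called from ChIP-Seq libraries of spermatocyte nuclei, which had been sorted out of formaldehyde-fixed whole testes of adult C57Bl/6J wild-type males, with no other genotype and no treatment group. The 5 sorted populations follow meiotic prophase from leptonema and zygonema through the early and the late part of pachynema to diplonema. For H3K4me3, precipitated with an EpiCypher antibody, 10 lists were used, with experiments 1 and 2 of each stage. For H3K4me2/3, precipitated with an Abcam antibody that binds both states, 5 lists of experiment 2 were used, and for H3K9ac 5 lists of experiment 1. Leptonema was collected in a separate sort with STRA8, whereas the other 4 stages were collected together with H1t and SCP1, so that the sort and the leptonema stage cannot be told apart. Each population was enriched and not pure, and it is not stated here which libraries share an animal.

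H3K4me3 marks the promoters of active genes, and the trithorax/MLL methyltransferase complexes are among the enzymes that lay it down. In germ cells many developmental promoters that are silent also carry H3K4me3 together with the Polycomb mark H3K27me3. Hox clusters are classical targets of both systems. H3K9ac accompanies active promoters. In spermatocytes Hox genes belong to the somatic body plan programme rather than to the meiotic one.

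The H3K4me3 list of leptonema experiment 2 stood apart from the other lists at the Hox clusters. It called 31 of the 39 Hox genes, and the list of leptonema experiment 1 called 2. The results are therefore given with and without it. The gene of the sorting protein SCP3 (Sycp3) was called in 10 of 10 H3K4me3 lists, and Stra8 was called in both leptonema lists and in no other H3K4me3 list. The gene of SCP1 (Sycp1) was called in 8, and not in experiment 1 of late pachynema and diplonema. The gene of H1t (Hist1h1t) was called in 2, leptonema experiment 1 and zygonema experiment 2, and at no later stage. Of 26 marker genes of Sertoli, Leydig, peritubular, blood and endothelial cells, 2 were called in leptonema experiment 2 (Sox9 and Wt1) and 1 in leptonema experiment 1, and from 0 to 1 in the other 8 H3K4me3 lists. In leptonema experiment 2, 0 of 6 Leydig, 0 of 4 peritubular, 0 of 5 macrophage and blood and 0 of 4 endothelial markers were called. The Sertoli markers Amh, Dhh and Fshr were not called in any H3K4me3 list. Of 6 spermatogonial markers, 3 were called in leptonema experiment 2, Kit among them, and 2 in leptonema experiment 1. The part of other cells in the calls was not tested beyond these counts.

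The promoters of Hox genes that showed different patterns of calls are printed below, as the 250 bases before the transcript start in RefSeq (GRCm38.p6), 5′ to 3′ on the gene's strand, with CpG dinucleotides (the letters CG) in capitals. The RefSeq table held 24 promoters of 22 of the 39 genes, and Hoxa4, Hoxc5 and Hoxb13 were not among them. Hoxd8 was called in every H3K4me3 library, Hoxa7 lay under the widest peak, Hoxa10 and Hoxa13 were called mainly early, and Hoxb1 had no H3K4me3 call. Hoxa13 was added after its values were seen, because it held most CpGs.

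Hoxd8: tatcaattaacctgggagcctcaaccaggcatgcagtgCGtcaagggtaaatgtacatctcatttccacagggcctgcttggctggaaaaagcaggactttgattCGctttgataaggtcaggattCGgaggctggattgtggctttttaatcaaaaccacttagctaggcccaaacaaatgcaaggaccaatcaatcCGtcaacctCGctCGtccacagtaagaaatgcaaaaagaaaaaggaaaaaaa
Hoxa7: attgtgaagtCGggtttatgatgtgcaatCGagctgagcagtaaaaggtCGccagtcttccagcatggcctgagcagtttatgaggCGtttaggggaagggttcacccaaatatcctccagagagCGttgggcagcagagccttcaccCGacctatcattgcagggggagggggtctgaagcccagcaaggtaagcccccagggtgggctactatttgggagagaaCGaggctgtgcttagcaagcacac
Hoxa10: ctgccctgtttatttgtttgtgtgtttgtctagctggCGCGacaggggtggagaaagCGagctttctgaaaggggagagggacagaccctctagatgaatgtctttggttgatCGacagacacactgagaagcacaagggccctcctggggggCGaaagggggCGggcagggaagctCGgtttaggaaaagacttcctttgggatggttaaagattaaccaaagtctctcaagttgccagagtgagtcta
Hoxa13: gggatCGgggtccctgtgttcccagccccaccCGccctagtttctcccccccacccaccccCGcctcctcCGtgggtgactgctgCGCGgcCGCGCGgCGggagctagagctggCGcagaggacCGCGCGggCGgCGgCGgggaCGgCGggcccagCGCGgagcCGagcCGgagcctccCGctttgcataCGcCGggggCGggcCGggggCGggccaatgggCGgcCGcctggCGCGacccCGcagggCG
Hoxb1: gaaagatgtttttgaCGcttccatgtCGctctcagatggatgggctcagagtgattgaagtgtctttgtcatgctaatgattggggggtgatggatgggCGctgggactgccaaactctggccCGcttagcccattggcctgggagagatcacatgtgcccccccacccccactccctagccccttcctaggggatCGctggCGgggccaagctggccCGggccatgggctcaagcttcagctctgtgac

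The Hoxd8 sequence (chr2:74704365-74704614, plus strand) held 6 CpGs, and 50.8% of the 31396 autosomal promoters of the same length held as many or more. The sequences of Hoxa7 (chr6:52218574-52218823, minus strand), Hoxa10 (chr6:52240855-52241104, minus strand) and Hoxb1 (chr11:96365508-96365757, plus strand) held 7 CpGs each, a number reached by 46.8% of all promoters. Hoxa13 (chr6:52260881-52261130, minus strand) held 35, which 3.08% of all promoters reached. Of all promoters, 92.4% held at least 1 CpG. H3K4me3 peaks overlapped the printed bases of Hoxa13 in 2 of 10 libraries, of Hoxd8 and Hoxa7 in 1, and of Hoxa10 and Hoxb1 in 0. H3K4me2/3 peaks overlapped those of Hoxa13 and Hoxd8 at 4 of 5 stages, of Hoxb1 at 2, of Hoxa10 at 1 and of Hoxa7 at 0. The start that RefSeq gives for Hoxa7 lay 3281 bp inside the longest GENCODE model.

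H3K4me3 was first compared between Hox genes and all genes in each library. In experiment 1 the lists called 2 Hox genes at leptonema and 4 at zygonema, then 2 and 1 at early and late pachynema and 1 at diplonema. In experiment 2 they called 31, 6, 2, 3 and 8 in the same order. Leptonema experiment 2 was thus far above the other 9 libraries, which ranged from 1 to 8. Among all protein-coding genes the same lists of experiment 1 called 39.2%, 36.9%, 34.0%, 26.8% and 29.3%, and those of experiment 2 called 47.1%, 35.9%, 25.5%, 40.3% and 46.8%. In leptonema experiment 2 the share of Hox genes was 79.5% (exact binomial 95% interval from 63.5 to 90.7), above that of all genes. In each of the other 9 libraries the share of Hox genes, from 2.56% to 20.5%, was below that of all genes. The intervals cover counting error over genes only, and neighbouring genes share chromatin.

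**Figure D1:**
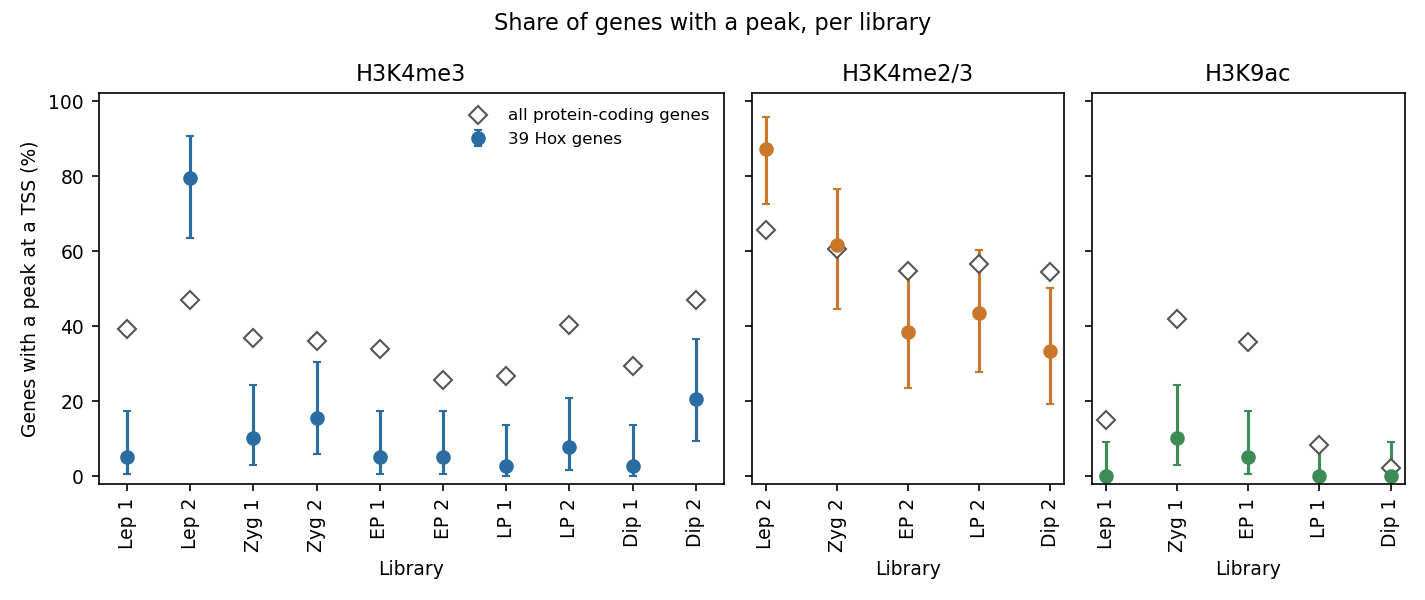
Share of genes with a peak at a TSS (%) in each library, labelled by stage (Lep, leptonema; Zyg, zygonema; EP, early pachynema; LP, late pachynema; Dip, diplonema) and experiment. Filled circles are the 39 Hox genes with exact binomial 95% intervals over genes, and open diamonds are all 20807 protein-coding genes. Leptonema experiment 2 is the only H3K4me3 library in which the Hox genes (79.5%) lie above all genes (47.1%).

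The same comparison was made among genes with a CpG-rich TSS. In the 1000 bp around the 5′ end of the gene model, 24 of 39 Hox genes (61.5%) and 45.7% of all genes were CpG-rich, with at least 50% G and C and an observed to expected CpG ratio of at least 0.6. CpG content was taken at the 5′ end of the gene model only, whereas the calls used every TSS. Leptonema experiment 1 called 2 of the 24 CpG-rich Hox genes and 71.3% of all 9512 CpG-rich genes. Leptonema experiment 2 called 22 of the 24, and 81.3% of all CpG-rich genes. In the other 8 libraries from 1 to 8 of the 24 were called, beside 47.6% to 79.2% of all CpG-rich genes.

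Over the 10 libraries, 32 of 39 Hox genes were called at least once, beside 55.2% of all genes. Hoxd8 was called in all 10, beside 18.2% of all genes. There were 22 Hox genes called in leptonema experiment 2 and in none of the other 9 libraries, where the same rule took 3.13% of all genes. They were 5 genes of HoxA (Hoxa2, Hoxa3, Hoxa5, Hoxa6 and Hoxa11), 5 of HoxB (Hoxb4 and Hoxb6 to Hoxb9), 5 of HoxC (Hoxc6 and Hoxc8 to Hoxc11) and 7 of HoxD (Hoxd1, Hoxd3, Hoxd4 and Hoxd9 to Hoxd12). Within leptonema, 29 Hox genes were called in experiment 2 and not in experiment 1, beside 8.49% of all genes. Without leptonema experiment 2, 10 Hox genes had a call, where among all genes this step takes the 3.13% out of the 55.2%. Of those 10 genes, 8 (80%) had a CpG-rich TSS, beside 15 of the 22 (68.2%) and 61.5% of all Hox genes. Of the 7 genes without any H3K4me3 call, 1 had a CpG-rich TSS.

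Hoxd8, which acts in patterning of the trunk, was the steadiest Hox gene. Its 10 H3K4me3 peaks were from 504 to 3641 bp wide, and the 3641 bp were reached in leptonema experiment 2. In 9 of the 10 libraries the peak began downstream of the first TSS of the gene, between 54 and 920 bp from it. In late pachynema experiment 1 and diplonema experiment 1 it began 842 and 920 bp downstream and reached the window only of a later TSS. In leptonema experiment 2 the peak began upstream, at -2294 bp from that TSS.

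Hoxa4, the HoxA gene with most calls, was called in 8 of 10 H3K4me3 libraries. The peaks were from 579 to 1058 bp wide and spanned its TSS in all 8, and no peak was found in experiment 1 of late pachynema and diplonema. In leptonema experiment 2 the Hoxa4 peak was 688 bp wide, within the range of the other libraries. Its TSS window held 125 CpGs, second among Hox genes to the 126 of Hoxa13, beside a median of 52 for Hox genes and 43 for all genes.

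Hoxb5 and Hoxc12 had most calls in HoxB and HoxC, with 2 each, in leptonema experiment 2 and diplonema experiment 2. The Hoxb5 peaks were 1894 and 967 bp wide and those of Hoxc12 were 3159 and 200 bp wide. Hoxd13 and Hoxa13, which pattern the digits and the genital tubercle, were also called at diplonema in experiment 2, as were Hoxa4, Hoxa7 and Hoxd8. In experiment 1 of diplonema only Hoxd8 was called.

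Hoxb1, Hoxb2, Hoxb3, Hoxb13, Hoxc4, Hoxc5 and Hoxc13 had no H3K4me3 peak within 500 bp of a TSS in any of the 10 libraries. This held for leptonema experiment 2 as well. Peaks elsewhere in a gene gave no call. Examples were a peak of zygonema experiment 2 inside Hoxb3 (chr11:96342272-96342804) and a peak of late pachynema experiment 2 inside Hoxc5 (chr15:103014922-103016047). Hoxb1 acts in patterning of the hindbrain, and Hoxb13 in the prostate and tail. The lists hold no score, so a mark below the calling threshold cannot be told apart from no mark. The windows around the 5′ ends of these 7 gene models held a median of 36 CpGs, and windows of their other TSSs were not counted.

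By position in the clusters, the calls of leptonema experiment 2 took in 4 of the 8 genes of paralog groups 1 to 3, 13 of the 15 of groups 4 to 8 and 14 of the 16 of groups 9 to 13. The same list called 47.1% of all genes. The uncalled genes of groups 1 to 3 included Hoxb1, Hoxb2 and Hoxb3, so position was not separated from cluster, and its part was not tested. In the other 9 libraries groups 1 to 3 had from 0 to 1 call, groups 4 to 8 from 1 to 4 and groups 9 to 13 from 0 to 3, beside 25.5% to 46.8% of all genes.

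The stage course was tested by comparing the 4 leptonema and zygonema libraries with the 6 later ones. The mean number of Hox genes called was 10.75 ± 13.6 (SD, n = 4) early and 2.83 ± 2.64 (SD, n = 6) later, a difference of 7.92 genes. Without leptonema experiment 2 the early mean was 4 ± 2 (SD, n = 3) and the difference was 1.17 genes, within the spread of the later libraries. Hoxa10, which patterns the reproductive tract, and Hoxa13 met the rule of at least 3 of 4 early and at most 1 of 6 later libraries, beside 2.66% of all genes. Hoxa10 was called in leptonema experiment 2 and in both zygonema libraries, and Hoxa13 in these and in diplonema experiment 2. At zygonema the Hoxa10 peaks were 374 and 542 bp wide and those of Hoxa13 were 367 and 542 bp wide, so that these early calls also stood in both experiments of zygonema. No Hox gene met the opposite rule (at most 1 early and at least 5 later libraries), beside 0.711% of all genes.

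Gene by gene, a two-sided Fisher's exact test of early against later libraries passed for 0 of the 32 Hox genes with a call, at an adjusted p (Benjamini-Hochberg over 11488 genes) below 0.05. It passed for 0% of all genes. The smallest p this design allows is 0.00476, and the smallest adjusted p over all genes was 0.375. One unadjusted p among the Hox genes was below 0.05, that of Hoxa10 with an exact p of 0.0333 (3 of 4 early, 0 of 6 later). This was 3.12% of the Hox genes tested, beside 4.75% of all genes tested (546 of 11488).

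The whole clusters were then compared by the share of their length under peaks. HoxA spans 105.291 kb (chr6:52155590-52260880), HoxB 173.941 kb (chr11:96194316-96368256), HoxC 115.75 kb (chr15:102921103-103036852) and HoxD 96.833 kb (chr2:74668310-74765142), in mm10 and from the first to the last Hox gene. H3K4me3 peaks of leptonema experiment 2 covered 37.4% of HoxA, 14.5% of HoxB, 13.97% of HoxC and 33.4% of HoxD, whereas peaks of the same list covered 0.439% of the autosomes. In leptonema experiment 1 the shares were 0.723% of HoxA, 0% of HoxB, 0% of HoxC and 0.714% of HoxD. Of 24639 windows of 100 kb along the autosomes, 0 were covered in leptonema experiment 2 as much as HoxA or HoxD, 5 as much as HoxB and 6 as much as HoxC.

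In the other 8 H3K4me3 libraries the covered share of HoxA ran from 0% at late pachynema experiment 1 to 4.53% at diplonema experiment 2. That of HoxD ran from 0.604% to 4.90% and was lowest and highest in the same libraries. HoxB had from 0% to 0.665% covered, and HoxC from 0% to 2.39%, with the highest value in diplonema experiment 2 for both. HoxC had no peak in either experiment of zygonema and early pachynema.

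**Figure D2:**
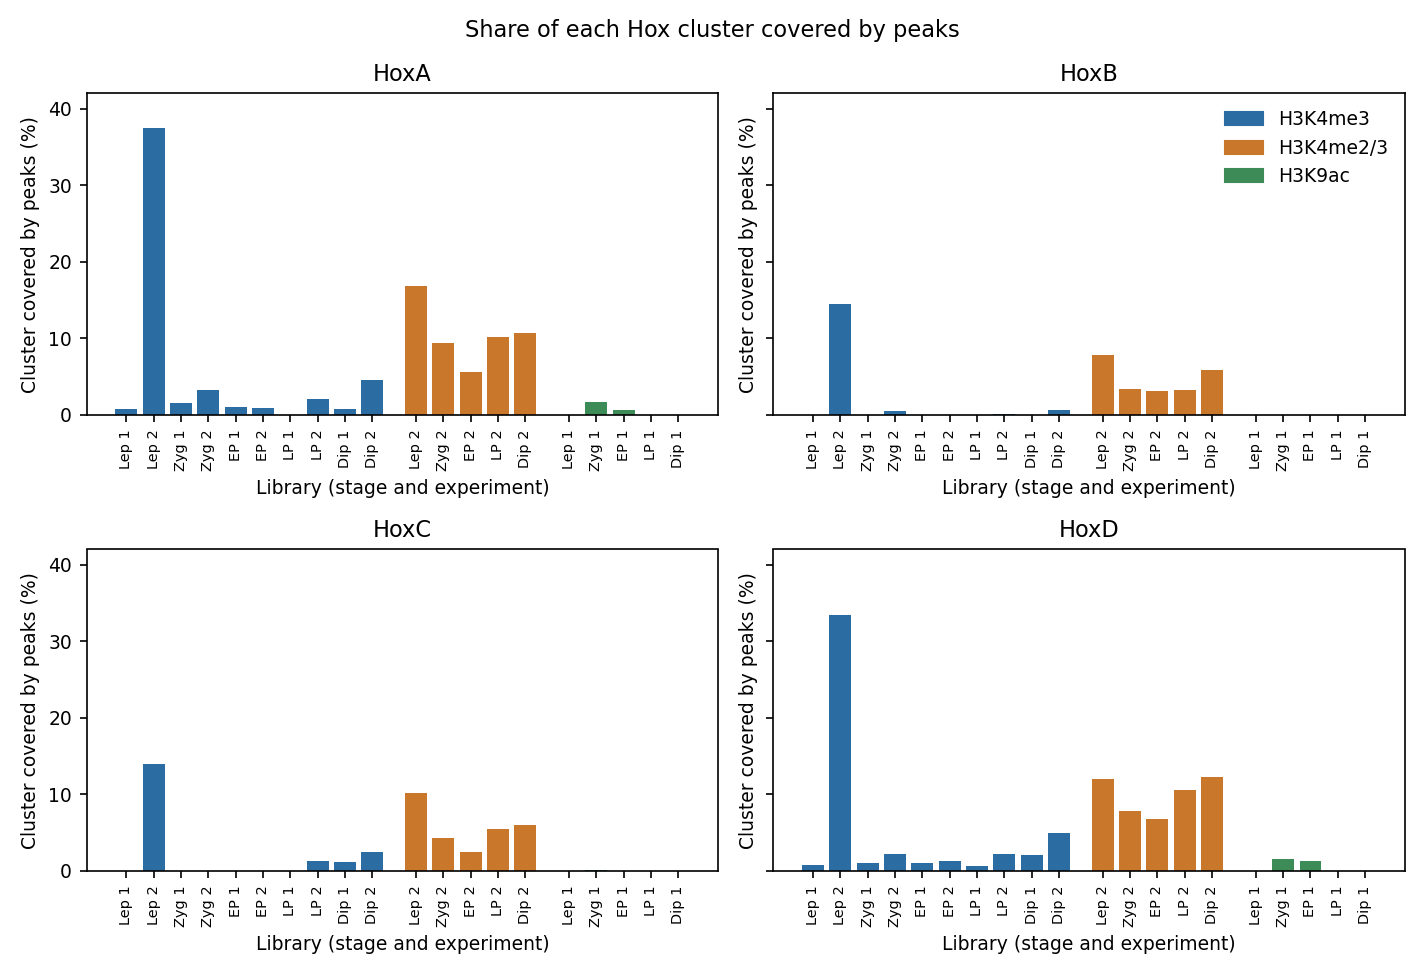
Share of each Hox cluster covered by peaks (%, bars from 0) in the 20 lists, labelled by stage and experiment, with 1 bar for each library. The bar of leptonema experiment 2 is the highest H3K4me3 bar in each cluster, at 37.4% in HoxA and 33.4% in HoxD.

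The covered share of each cluster was compared between early and later libraries by a two-sided exact permutation test (210 divisions of the libraries), adjusted over 12926 regions that comprised the 4 clusters and all 100-kb windows with a peak. The adjusted p passed 0.05 in 0% of the regions. HoxA had 10.7% ± 17.8 (SD, n = 4) covered early and 1.56% ± 1.61 (SD, n = 6) later, with an exact permutation p of 0.162 (adjusted 0.422). HoxD had 9.33% ± 16.1 (SD, n = 4) and 2.00% ± 1.55 (SD, n = 6), with an exact permutation p of 0.300 (adjusted 0.564). HoxB had 3.73% ± 7.17 and 0.128% ± 0.266, and HoxC 3.49% ± 6.99 and 0.795% ± 0.976, with exact permutation p of 0.233 and 0.471. Without leptonema experiment 2 the differences between early and later were 0.275 percentage points in HoxA, 0.0196 in HoxB, -0.795 in HoxC and -0.711 in HoxD, so that the last pair turned direction.

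A larger share of HoxA and of HoxD than of HoxB and HoxC lay under H3K4me3 peaks, and in many libraries single genes carried it. In 5 of the 9 libraries other than leptonema experiment 2 the share of HoxD was the Hoxd8 peak alone, and in both early pachynema libraries that of HoxA was the Hoxa4 peak alone. Over the 10 libraries the median covered share was 1.24% in HoxA and 1.64% in HoxD, and it was 0% in HoxB and in HoxC. A two-sided exact permutation test on the paired differences (sign flips over 10 libraries, adjusted over 6 pairs of clusters) passed for 4 pairs. HoxD was covered more than HoxB and than HoxC in 10 of 10 libraries. The mean of HoxB minus HoxD was -3.36 ± 5.58 percentage points (SD) and that of HoxC minus HoxD was -3.06 ± 5.80 (SD), each with an adjusted exact p of 0.00586. HoxA was covered more than HoxB in 9 libraries and less in 0, by 3.66 ± 6.87 percentage points (adjusted exact p = 0.00781). It was covered more than HoxC in 8 libraries and less in 1, by 3.35 ± 7.14 (adjusted exact p = 0.0117). Without leptonema experiment 2 the mean differences were -1.63 for HoxB minus HoxD, -1.23 for HoxC minus HoxD, 1.51 for HoxA minus HoxB and 1.12 for HoxA minus HoxC, and the adjusted exact p lay between 0.0117 and 0.0234. HoxA and HoxD differed by 0.296 ± 1.45 percentage points, and HoxB and HoxC by -0.305 ± 0.753 (adjusted exact p = 0.695 and 0.300). The cluster pair with more H3K4me3 also had more CpG-rich Hox genes, 9 of 11 in HoxA and 7 of 9 in HoxD, beside 3 of 10 in HoxB and 5 of 9 in HoxC. The part of CpG content was not tested.

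Peak width separated leptonema experiment 2 as well. Its widest peak on the autosomes, first of 13095, lay in HoxA over Hoxa7 and Hoxa9 (chr6:52216137-52227250) and was 11114 bp wide. Hoxa7 and Hoxa9 are best known for their roles in blood progenitors. In HoxD the widest peak was 6231 bp wide over Hoxd10 and Hoxd11 (chr2:74686095-74692325, rank 16), in HoxB it was 3783 bp over Hoxb8 (chr11:96281701-96285483, rank 56), and in HoxC it was 3159 bp at Hoxc12 (chr15:102934537-102937695, rank 103). In the other 9 H3K4me3 libraries the widest peaks over HoxA, HoxB, HoxC and HoxD were 1928, 967, 1358 and 2013 bp, all of them in diplonema experiment 2. The peaks at Hox TSSs had a median width of 1189 bp in leptonema experiment 2 and of 635 bp in leptonema experiment 1, where the medians of the whole lists were 690 and 586 bp.

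The 31 calls of leptonema experiment 2 rested on 34 peaks, of which 3 reached the TSSs of a pair of genes (Hoxa7 with Hoxa9, Hoxa9 with Hoxa10, and Hoxd3 with Hoxd4). The windows of Hoxd3 and Hoxd4 overlap each other, as do those of Hoxc5 and Hoxc10. Its peaks covered 39406 bp of HoxA, of which 12.4% lay under a peak of at least 1 of the other 9 H3K4me3 libraries, and these shared bases were 66.9% of what the other 9 covered there. In HoxD 8.36% of its 32378 bp was shared, which was 47.3% of the bases of the other 9. In HoxB and HoxC the shared bases were 7.19% and 6.54% of those of leptonema experiment 2, and 92.4% and 37.0% of those of the other 9.

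**Figure D3:**
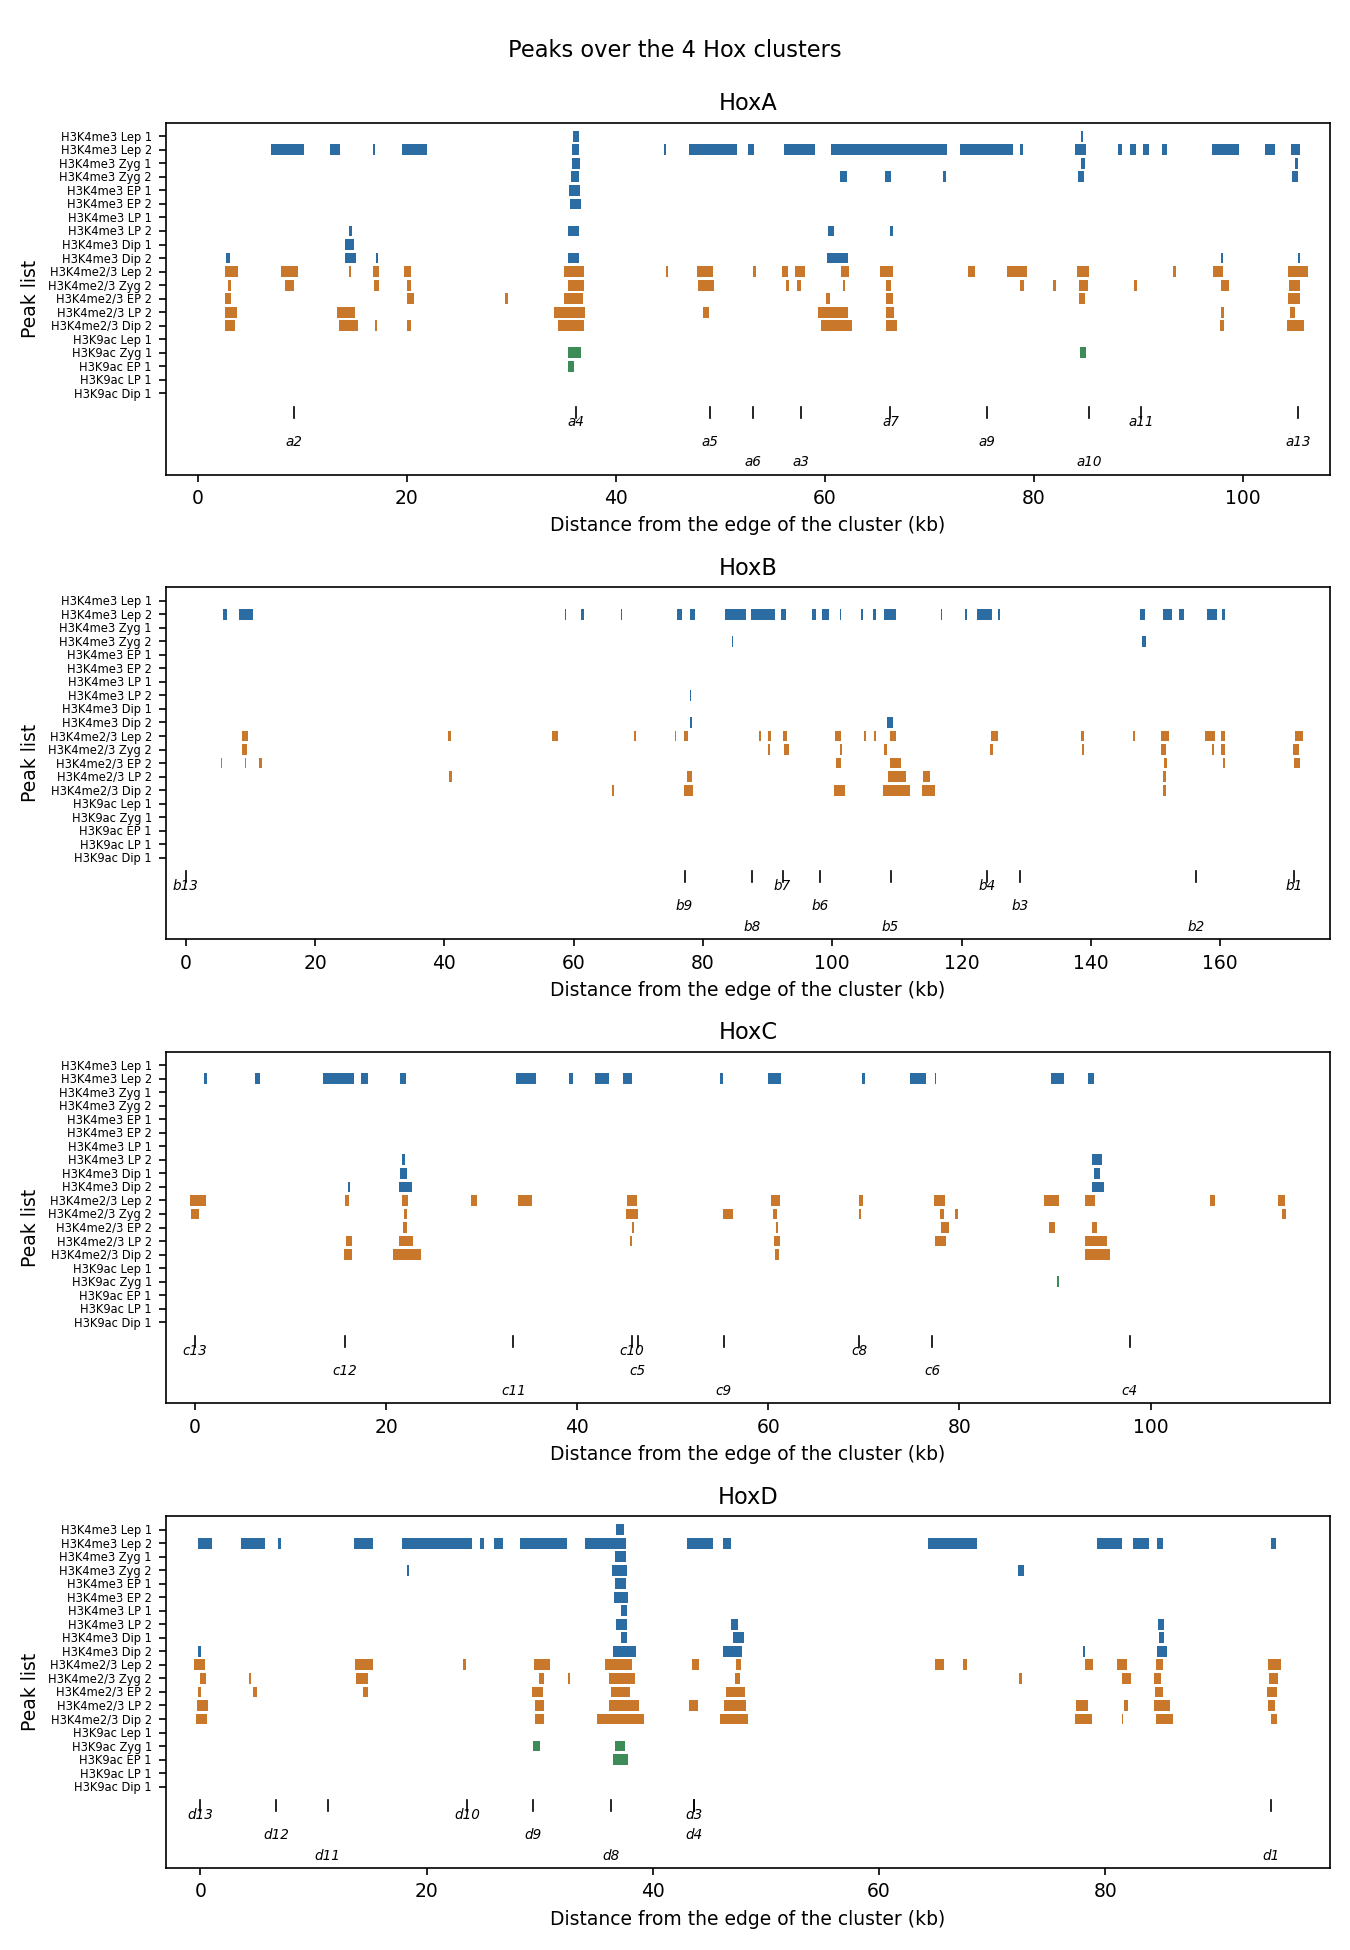
Peaks over the 4 Hox clusters in the 20 lists (rows), against the distance from the cluster edge with the lowest coordinate (kb). Blue, orange and green bars are H3K4me3, H3K4me2/3 and H3K9ac peaks, and ticks under them are the 5′ ends of the gene models, named without Hox. The second row of each map, leptonema experiment 2, holds the wide H3K4me3 peaks, with the 11114 bp peak at the middle of HoxA.

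H3K4me2/3 was compared with H3K4me3 in experiment 2, where both antibodies were used at the same stages. The authors report equal purity and starting chromatin for the antibodies at each stage except early pachynema, where both values differed. The H3K4me2/3 lists called 34 Hox genes at leptonema and 24 at zygonema, then 15 and 17 at early and late pachynema and 13 at diplonema, beside 65.7%, 60.5%, 54.6%, 56.4% and 54.3% of all genes. The share of Hox genes thus went from 87.2% at leptonema, above all genes, to 33.3% at diplonema, below all genes. Each stage had 1 library, so this course has no replicate check. Of the 26 marker genes of somatic cells, the same lists called 9 at leptonema and 6 at zygonema, then 0 and 1 in early and late pachynema and 2 at diplonema, and their part in the course was not tested. Of the 39 genes, 37 were called at least once (all genes 68.3%), and 9 at all 5 stages (all genes 48.7%). The latter included Hoxa4, Hoxa7, Hoxa13, Hoxc5, Hoxd1, Hoxd8, Hoxd9 and Hoxd13. There were 8 genes called at leptonema and at no later stage, beside a share of all genes of 3.73%, and 4 of them were in HoxB (Hoxb2, Hoxb3, Hoxb6 and Hoxb8).

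The H3K4me2/3 lists called 10.6 more Hox genes than the H3K4me3 lists on average over the 5 stages. This was an excess of 27.2 percentage points for Hox genes, beside 19.2 for all genes. At leptonema the excess of Hox genes, 7.69 points, was below the 18.6 of all genes. At leptonema 27 genes were called with both antibodies, 7 with H3K4me2/3 alone, 4 with H3K4me3 alone (Hoxa11, Hoxb4, Hoxc9 and Hoxd12) and 1 with neither (Hoxb13). At zygonema 5 were called with both, 19 with H3K4me2/3 alone and 1, Hoxa9, with H3K4me3 alone. At the 3 later stages each gene with H3K4me3 also had H3K4me2/3, and 13, 14 and 5 genes had H3K4me2/3 alone. The share with H3K4me2/3 alone was 17.9% of Hox genes and 18.8% of all genes at leptonema, and 48.7% and 24.7% at zygonema. At the 3 later stages it was 33.3%, 35.9% and 12.8% of Hox genes and 29.1%, 16.3% and 7.91% of all genes. Over all genes only 0.0192% to 0.433% were called with H3K4me3 alone at any stage. Hoxc5 was the Hox gene with H3K4me2/3 calls at all 5 stages and no H3K4me3 call in experiment 2, beside 1.57% of all genes. Its calls came from different TSSs. At zygonema and early pachynema the peak lay at the far upstream TSS beside Hoxc10. At late pachynema and diplonema it lay at the downstream TSS, and at leptonema at both. At late pachynema an H3K4me3 peak of experiment 2 (chr15:103014922-103016047) lay inside that H3K4me2/3 peak (chr15:103014262-103016589), beyond the TSS window. Both antibodies thus gave a peak there, and only the H3K4me2/3 peak reached the window.

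The H3K4me2/3 lists were longer, and with lists of equal length (the widest peaks of the longer list) the comparison changed. At leptonema, with 13095 peaks each, H3K4me3 called 31 Hox genes and H3K4me2/3 called 17, beside 47.1% and 50.9% of all genes. With equal lengths at zygonema both called 6, and at early pachynema, late pachynema and diplonema H3K4me3 called 2, 3 and 8 and H3K4me2/3 called 3, 5 and 11. The mean difference was then -1.6 genes, and 1.5 genes without leptonema. Because the lists were cut by width, these counts depend on peak width as well as on list length.

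Coverage of the clusters showed the same contrast at leptonema. H3K4me2/3 peaks covered 16.8% of HoxA, 7.80% of HoxB, 10.2% of HoxC and 12.0% of HoxD at leptonema, each less than the H3K4me3 peaks of the same experiment, although the H3K4me2/3 list covered 1.29% of the autosomes and the H3K4me3 list 0.439%. Of the bases of HoxA under H3K4me3 in leptonema experiment 2, 30.9% lay under H3K4me2/3 peaks, and 68.8% of the H3K4me2/3 bases lay under H3K4me3. At the 4 later stages of experiment 2 the H3K4me2/3 peaks covered more of each cluster than the H3K4me3 peaks did. At diplonema they covered 10.7% against 4.53% of HoxA and 12.2% against 4.90% of HoxD. The H3K4me2/3 list also covered more of the autosomes at diplonema, 1.15% against 0.443%. As a ratio to these shares, coverage was 9.30 against 10.2 in HoxA and 10.6 against 11.1 in HoxD. In HoxC the ratio was 5.17 against 5.40, and in HoxB 5.05 against 1.50. The widest H3K4me2/3 peaks over the clusters were all at diplonema. They were 4170 bp at Hoxd8, 4072 bp at Hoxb5, 2989 bp at Hoxa7 and 2894 bp over the noncoding gene Hotair, away from its TSS, with no rank above 591 of 18191.

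H3K9ac was called at 0 Hox genes at leptonema and 4 at zygonema, then at 2 and 0 in early and late pachynema and at 0 in diplonema, beside 14.9%, 41.9%, 35.7%, 8.36% and 2.08% of all genes. The genes were Hoxa4, Hoxa10, Hoxd8 and Hoxd9 at zygonema, and Hoxa4 and Hoxd8 at early pachynema. Thus 4 of 39 Hox genes had H3K9ac at any stage, beside 44.2% of all genes. All 4 also had H3K4me3 in at least 1 library, and Hoxa4 and Hoxd8 were the genes with most H3K4me3 calls in their clusters. Hoxd9, an axial and limb patterning gene, had its only H3K4me3 call, from a peak 4162 bp wide, in leptonema experiment 2. The lists of leptonema, late pachynema and diplonema were short (2823, 1727 and 516 peaks), and the 0 calls at these stages allow a share of Hox genes of up to 9.03% (upper exact binomial 95% bound). H3K9ac peaks covered at most 1.71% of HoxA, 1.51% of HoxD and 0.140% of HoxC, and 0% of HoxB.

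Genes between and around the Hox genes followed in part. Of 43 noncoding genes inside the clusters, 26 had H3K4me3 at leptonema experiment 2 and 0 at leptonema experiment 1, beside 47.1% and 39.2% of all protein-coding genes. In leptonema experiment 2 alone 20 were called, beside 3.13% of all protein-coding genes. The share over noncoding genes elsewhere was not counted. The noncoding genes lie among the Hox genes, so the same peak can give calls at several genes, and shared peaks were not counted. Haglr, Hoxd3os1 and Gm14424, noncoding genes of HoxD, had the same calls as each other, which may rest on shared peaks. They were called in leptonema experiment 2, late pachynema experiment 2 and both diplonema libraries, and with H3K4me2/3 at all 5 stages. Of the nearest protein-coding neighbours, Skap2 next to HoxA and Mtx2 next to HoxD were called in 10 of 10 H3K4me3 libraries. The homeobox genes Evx1 and Evx2, which adjoin HoxA and HoxD on the other side, were called in leptonema experiment 2 alone. The peak at Evx2 was 8910 bp wide and the third widest of that list. Next to HoxB, Ttll6 was called in 0 libraries and Skap1 in 1, and next to HoxC, Calcoco1 in 3 and Smug1 in 0.

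Genes that act with Hox proteins or on their chromatin were looked at last. Of Evx1, Evx2 and the 5 ParaHox genes, relatives of the Hox genes in a separate cluster or alone, 3 were called in leptonema experiment 2. This was 42.9%, beside 47.1% of all genes. In diplonema experiment 2, 1 was called (14.3%, beside 46.8% of all genes). In the other 8 H3K4me3 libraries 0 were called, beside 25.5% to 40.3% of all genes. Of 9 TALE cofactors, which bind DNA with Hox proteins, 6 (66.7%) were called in leptonema experiment 2, beside 47.1% of all genes. From 2 to 4 (22.2% to 44.4%) were called in the others, near the 25.5% to 46.8% of all genes. Pknox1 was called in 10 of 10 libraries and Pbx3 and Pbx4 in 8 each, whereas Meis1 and Meis2 were called in 1. The genes of the regulators themselves were called more widely. Of 11 PRC2 genes, from 6 to 10 (54.5% to 90.9%) were called per H3K4me3 library. Of 17 autosomal PRC1 genes from 6 to 15 (35.3% to 88.2%) were called, and of 12 trithorax/MLL genes from 6 to 11 (50% to 91.7%). The same libraries called 25.5% to 47.1% of all genes and 47.6% to 81.3% of all CpG-rich genes. Suz12 and Eed, core subunits of PRC2, had H3K4me3 in 10 of 10 libraries. Of its alternative catalytic subunits, Ezh1 had H3K4me3 in 7 of 10 libraries and Ezh2 in 0. Ezh2 also had no H3K4me2/3 or H3K9ac call at any stage, and why it had none was not tested.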

How the data were processed

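The deposited files used here were 20 peak lists, in which each peak has a chromosome and its first and last position in mm10, with no score, signal or read count, so these values are other than a quantitative unit and the depth behind a call is unknown. The other 31 samples were not analysed here. The authors sheared the chromatin by sonication, aligned reads with BWA mem 0.7.12 to mm10 and called broad peaks with MACS2 2.1.2 in each library, against stage-matched input. For H3K9ac the control is not given in the sources used here, and the antibody label of these samples names H3K4me3 with the catalogue number of an H3K9ac antibody. The lists hold chromosomes 1 to 19.

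Peaks were compared with TSSs of GENCODE M21 (mm10) in Python 3.11.15 with numpy 2.4.6 and scipy 1.17.1. Tests were fitted over all protein-coding genes or all 100-kb windows and adjusted by the Benjamini-Hochberg method, with a threshold of 0.05, and the steps were tested on simulated lists. Early libraries were leptonema and zygonema. The labels do not say that libraries of 1 stage came from separate animals, so p-values measure the spread between libraries. The alternatives were a window of 1000 bp, an overlap of 250 bp, other TSS choices, equal list sizes, the peaks above the median width of each list, 10 kb of flank, HoxB without the stretch to Hoxb13, a replicate block and leaving out each library. Genes were named by a rule (most H3K4me3 calls per cluster, none, early or later patterns, H3K4me2/3 alone, H3K9ac, widest peaks and the fixed lists). The counts cover all 39 Hox genes, and 1 of them is not reported here by itself. The Hox members and all lists were chosen with earlier results of these data known.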

Additional observations from a re-analysis of the deposited data

Results flagged for a closer look

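The 4 early and the 6 later H3K4me3 libraries were checked by Dixon's criterion for a library far from the others. The 10 sets of values were the number of Hox genes called and the covered share of each cluster in either group, and 8 stood out. For normally distributed values the criterion flags about 1 in 20 by chance. That rate does not hold here, since the values are counts and shares with a floor at 0. In HoxC, for example, the other early libraries were all at 0%. The values are correlated between clusters and the sets join several stages, so the 8 are not separate observations.

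Leptonema experiment 2 stood out in 5 sets, with 31 Hox genes called and 37.4% of HoxA, 14.5% of HoxB, 13.97% of HoxC and 33.4% of HoxD covered. Diplonema experiment 2 stood out among the later libraries in 3 sets, with 8 Hox genes called and 0.665% of HoxB and 4.90% of HoxD covered. In both stages the list of experiment 2 was longer than that of experiment 1 (13095 against 9528 peaks at leptonema, 12071 against 6645 at diplonema). With the 4883 widest peaks of each list, leptonema experiment 2 called 21 Hox genes and leptonema experiment 1 called 2, beside 22.7% and 22.0% of all genes. The peaks at Hox TSSs in leptonema experiment 2 were wide (median 1189 bp, beside 690 bp in the whole list). A cut by width therefore cannot separate list length from peak width. Diplonema experiments 2 and 1 called 4 and 1 at that length, beside 23.4% and 22.9% of all genes. Of the 20 widest peaks of leptonema experiment 2, 2 lay in a Hox cluster. Those of rank 2 to 5 lay outside the clusters at genes of other developmental transcription factors, Sp9 (9425 bp), Evx2 (8910 bp), Foxd3 (8550 bp) and Sox14 (8512 bp). The widest overlapping peaks of the other 9 H3K4me3 libraries were 827, 586 and 601 bp at the first 3, and Sox14 had none, so wide peaks of this library were not confined to Hox genes.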

How the results depend on the processing

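Of 135 recomputed values, 3 reversed, and the differences between early and later libraries shrank most without leptonema experiment 2. The mean excess of Hox genes with H3K4me2/3 over H3K4me3 (10.6) reversed to -1.6 with equal list sizes, and was 3.8 with the peaks above the median width of each list and 1.5 with equal list sizes and leptonema left out, an alternative chosen after the data were seen. The mean number of Hox genes with H3K9ac (1.2) was 0 with equal list sizes, where each list was cut to 516 peaks. Leaving out libraries 1 at a time, the early minus later difference in Hox genes ranged from 1.17 to 10.8, the H3K4me2/3 excess from 8.75 to 12.5 and the H3K9ac mean from 0.5 to 1.5. The covered share, early minus later, ranged from 0.275 to 12.5 percentage points in HoxA, 0.0196 to 4.85 in HoxB, -0.795 to 3.86 in HoxC and -0.711 to 10.2 in HoxD, and the lowest value of each, reversed in HoxC and HoxD, was that without leptonema experiment 2. The count of Hox genes with a per-gene difference was 0 and the count of cluster pairs that differed was 4 in all alternatives run, without each library included (0 to 0 and 4 to 4), and each of the 4 pairs passed in all 15 settings, with adjusted exact p from 0.00586 to 0.0234.

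With the experiment number as a replicate block, which allows 100 divisions, the differences stayed at 9.17, 3.60, 2.70 and 7.33 percentage points for HoxA to HoxD, with adjusted exact p of 0.421, 0.499, 0.619 and 0.553, and 0 Hox genes passed. The numbers were not taken as pairs, since the deviations of the experiments correlated between stages by -0.205 to 0.451 over all genes, over 0.1 in 3 of 10 pairs of stages. No depth can be read from the lists, and a gene without a peak can carry the mark below the threshold.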
